A study of Mus musculus with 4 samples.

Results

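The genes of complement C1q and of the clearance of dying cells were followed across the bone marrow cells of 5TMM mice given vehicle or purinostat mesylate (PM), an inhibitor of histone deacetylases of classes I and IIb. The set holds 10 of the 32285 genes in the files, namely C1qa, C1qb, C1qc, Axl, Mertk, Gas6, Pros1, Cd5l, Mrc1 and Lgals3bp. They were chosen by name, and their unique molecular identifiers (UMIs, counts of single transcripts) were summed per library in macrophages, monocytes and the other cell types. C57BL/KawRij mice received 5TGM1-luc cells, a mouse myeloma line that carries luciferase, into a vein at an age of 6 weeks, and were treated 3 weeks later. The PM group (n = 2 mice) was given 10 mg/kg, the vehicle group (n = 2 mice) the carrier, and marrow was taken at 24 h with its erythrocytes lysed. Both groups therefore carry the myeloma, and mice without it were not part of these libraries.

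C1q is the recognition part of the classical complement pathway and is built from the chains encoded by C1qa, C1qb and C1qc. It binds antibody complexes and dying cells, and tissue macrophages make much of it. Efferocytosis is the engulfment of apoptotic cells. The receptor tyrosine kinases Axl and Mertk take part in it through Gas6, and Mertk also through protein S (Pros1). These soluble ligands bridge the receptors to phosphatidylserine on the dying cell. Macrophages of the marrow clear nuclei expelled by erythroblasts and aged neutrophils in this way. Cd5l (also known as AIM) is a secreted protein of tissue macrophages, Mrc1 (CD206) is the macrophage mannose receptor, and Lgals3bp is a secreted glycoprotein that binds galectins.

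By their gene IDs all 10 members matched GENCODE vM21. The 3 C1q genes lie side by side on chromosome 4 in the order C1qb, C1qc and C1qa, all on the minus strand, within 18675 bases (chr4:136880129-136898803, GRCm38, GENCODE vM21). The other members lie apart: Axl on chromosome 7 (25757273 to 25788705, minus strand), Mertk on chromosome 2 (128698956 to 128802894, plus strand), Gas6 on chromosome 8 (13465374 to 13494490, minus strand) and Pros1 on chromosome 16 (62854307 to 62929346, plus strand). Cd5l lies on chromosome 3 (87357881 to 87371073, plus strand), Mrc1 on chromosome 2 (14229392 to 14332057, plus strand) and Lgals3bp on chromosome 11 (118392751 to 118402092, minus strand).

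Sequence upstream of the start was read from RefSeq (GRCm38.p6) for 9 of the 10 members, all but C1qa. Axl and Lgals3bp are shown because they were the members that rose in monocytes. C1qb and C1qc are shown because they are neighbors whose levels, though not equal, correlated across cell types and libraries (Pearson r = 0.869). Each stretch ends before the annotated first exon, runs 5′ to 3′ on the gene's strand, and has in capitals the matches on either strand to 5 motifs of transcription factors.
Axl, chr7:25788734-25788983: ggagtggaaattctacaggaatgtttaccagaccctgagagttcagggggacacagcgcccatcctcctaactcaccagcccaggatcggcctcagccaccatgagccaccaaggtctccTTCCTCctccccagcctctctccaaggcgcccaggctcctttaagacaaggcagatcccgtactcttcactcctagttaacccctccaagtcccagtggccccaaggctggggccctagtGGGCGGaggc
Lgals3bp, chr11:118402093-118402209: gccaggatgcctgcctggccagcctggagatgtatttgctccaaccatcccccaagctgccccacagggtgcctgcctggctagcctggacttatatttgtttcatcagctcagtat
C1qb, chr4:136886201-136886450: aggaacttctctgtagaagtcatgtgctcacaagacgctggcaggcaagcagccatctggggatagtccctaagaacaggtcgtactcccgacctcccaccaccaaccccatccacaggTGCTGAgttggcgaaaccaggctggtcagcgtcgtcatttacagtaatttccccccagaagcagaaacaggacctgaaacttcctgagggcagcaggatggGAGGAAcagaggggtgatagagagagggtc
C1qc, chr4:136893066-136893164: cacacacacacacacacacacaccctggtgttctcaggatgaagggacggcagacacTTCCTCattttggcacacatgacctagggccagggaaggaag
The capitals TTCCTC (Axl and C1qc) and GAGGAA (C1qb) are the PU.1 box, PU.1 being the master factor of the myeloid lineage. TGCTGA in C1qb is the Maf half-site, and GGGCGG in Axl is the GC box that Sp1 binds. Over the 250 bases before the start, on both strands and with overlaps counted, the PU.1 box GAGGAA was found in 5 of the 9 members and in 23.3% of 32851 windows of all genes. The Maf half-site TGCTGA was found in 3 members (16.1% of all windows) and the GC box GGGCGG in 6 (32.7%). The windows of C1qc, Lgals3bp and Mrc1 reach into the annotated gene, so only 99 bases of C1qc and 117 of Lgals3bp are printed. The GC box of C1qc and the Maf half-sites of Lgals3bp lie in the parts not printed. The core of the interferon-stimulated response element, GAAANNGAAA, was found in none of the 9 (2.98% of all windows), and the gamma-activated site TTCNNNGAA in Pros1 alone (7.02%). A match is a description of these letters and not a bound site.

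The 4 libraries held 9516 and 8242 barcodes (vehicle 1 and 2) and 13848 and 9787 barcodes (PM 1 and 2), with 69828595 to 109447030 UMIs each. Barcodes shared between pairs of libraries numbered 18 to 39, at most 0.4211% of the smaller library. After filtering, 7826 to 13387 cells per library were clustered without the 10 members and named from markers. Macrophages were 62 and 147 cells in vehicle and 128 and 158 in PM, with all 12 macrophage markers raised, led by Fcna, Vcam1, Hmox1, Spic and Sdc3. They were shallow, with medians of 709.0 to 950.5 UMIs per cell, against 10474.0 to 12051.5 in monocytes (1005, 675, 1291 and 496 cells). Non-classical monocytes were few, with 78 and 49 cells in vehicle and 37 and 39 in PM. Their 10 non-classical monocyte markers together held 3608 to 6067 CPM (UMIs of a sum scaled to a common total). The 11 markers of conventional dendritic cells held 10450 to 25930 CPM in the same sums. No class of conventional dendritic cells was named, and whether such cells lie within this class was not tested. Genes of other cells were present in the macrophage sums: the 10 neutrophil markers together held 81270 CPM in vehicle 1, 159500 in vehicle 2, 200200 in PM 1 and 162100 in PM 2. The 12 erythroid markers ranged from 403.6 CPM in vehicle 1 to 11850 in vehicle 2. The neutrophil markers were thus lowest in vehicle 1, and their part in the macrophage values below was not tested beyond the values given without the cells rich in them.

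The members were concentrated in macrophages. By the median CPM of the 4 libraries, 8 of the 10 members had their highest level there, and the other two, Gas6 and Pros1, in CXCL12-abundant reticular (CAR) cells, the stromal cells of the marrow niche. These levels describe the cell types and were not tested, and each gene is compared with itself only. The C1q chains came next in non-classical monocytes. C1qa had a median of 2453 CPM in macrophages (1697 to 2811) and 856 CPM in non-classical monocytes (739.1 to 1635), ranges that did not overlap. C1qb reached 953 CPM (851.7 to 1088) and 584.2 CPM (402.5 to 1148), which overlapped, and C1qc 1645 CPM (1491 to 1879) and 591.7 CPM (521.3 to 1003), which did not. In the class named monocytes, which includes cycling cells, the medians were 1.541, 2.973 and 1.475 CPM for C1qa, C1qb and C1qc. These lay far below those of macrophages and non-classical monocytes. Among the remaining types with at least 10 cells in every library, the highest C1qa median was that of CAR cells, at 30.54 CPM.

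**Figure D1:**
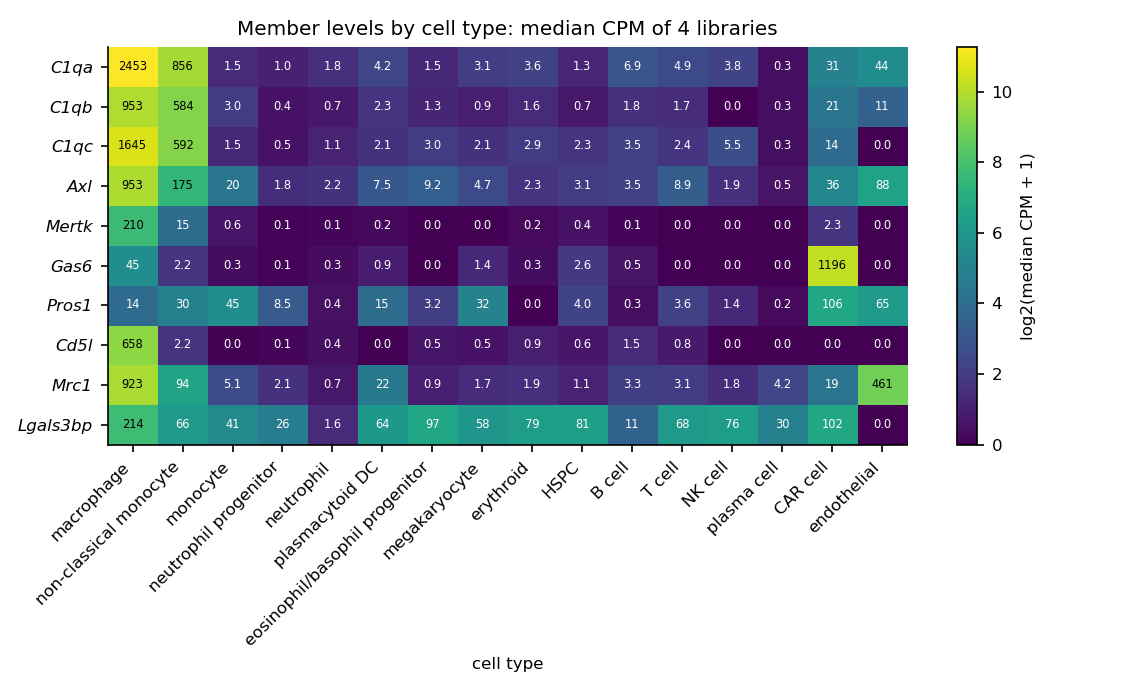
Median level (CPM over the 4 libraries, colored as log2(median CPM + 1)) of each member (rows) in each cell type (columns). C1qa, C1qb, C1qc, Axl, Mertk, Cd5l, Mrc1 and Lgals3bp are brightest in macrophages, Gas6 and Pros1 in CAR cells, and endothelial cells rest on 9 to 21 cells per library.

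The receptors and the secreted Cd5l followed the same order with steeper steps. Axl stood at 952.6 CPM in macrophages (851.7 to 1095) and 174.6 CPM in non-classical monocytes (154.4 to 336.7). Mertk stood at 210 CPM (146.4 to 218.6) and 14.69 CPM (0 to 35.63). Cd5l was the most restricted to macrophages of the 10 by its share of UMIs, with 657.8 CPM (235.4 to 770) against 2.192 CPM (0 to 5.939) in non-classical monocytes, and with 80.51% of its 790 UMIs in macrophages. Mrc1 had 922.9 CPM in macrophages (866.2 to 1032) and was next highest in the few endothelial cells (461.2 CPM, 82.82 to 803.1, 55 UMIs in all). Lgals3bp differed from the rest in its breadth. It had 213.6 CPM in macrophages (169.1 to 223.1), and CAR cells (42.84 to 163.7), eosinophil/basophil progenitors (82.75 to 133.5), hematopoietic stem and progenitor cells (HSPC, 63.26 to 95.92) and erythroid cells (62.39 to 111.9) followed with ranges that overlapped each other. Macrophages thus held only 2.298% of the 9183 Lgals3bp UMIs, while monocytes held 23.08%, erythroid cells 16.87% and neutrophil progenitors 16.39%.

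Of the ligands of the receptors, Gas6 lay mostly in CAR cells and Pros1 mostly in monocytes. Gas6 had 1196 CPM in CAR cells (781.9 to 2189) and 45.31 CPM in macrophages (16.82 to 80.2), and 78.72% of its 968 UMIs were in CAR cells although these numbered 26 to 66 per library. Pros1 had 106 CPM in CAR cells (82.11 to 143.2) and 45.42 CPM in monocytes (35.45 to 52.77). As monocytes are many and deep, they held 65.36% of the 3392 Pros1 UMIs. Their share of the Axl UMIs was 32.82% with vehicle and PM pooled, which describes neither group alone. Monocytes had 50 and 43 Axl UMIs in vehicle and 671 and 258 in PM. Macrophages had 167 and 282 Axl UMIs in vehicle and 273 and 278 in PM. Macrophages had 6, 0, 1 and 7 Pros1 UMIs in vehicle 1, vehicle 2, PM 1 and PM 2, a number too low to test.

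**Figure D2:**
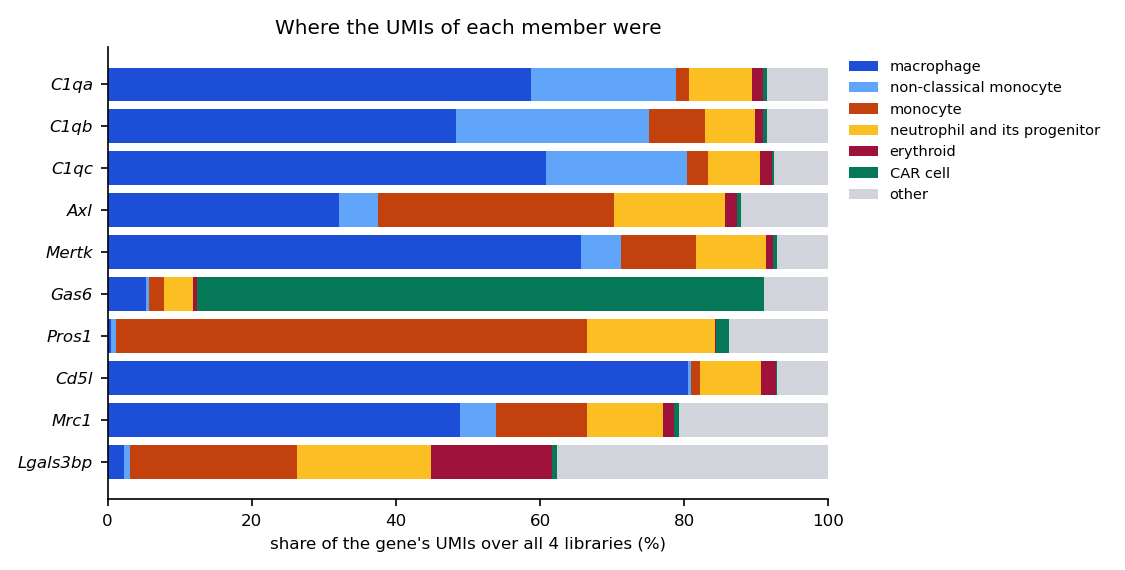
Share (%) of each member's UMIs, over all 4 libraries, that came from each cell type. Cd5l lies mostly in macrophages, Gas6 in CAR cells and Pros1 in monocytes, and Lgals3bp is spread over many types. With vehicle and PM pooled, Axl is divided between macrophages (32.11%) and monocytes (32.82%), a split that describes neither group alone.

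Within macrophages the C1q chains were found together. Of 495 macrophages, 453 (91.52%) had a UMI of at least 1 chain, 260 (52.53%) had all 3, and 24 had no UMI of any member, at a median of 817.0 UMIs per cell. Of 203 non-classical monocytes, 75 (36.95%) had any chain and 59 (29.06%) all 3, so that most of the cells with 1 chain had the others too. In monocytes 120 of 3467 cells (3.461%) had any chain and 13 had all 3. The chains differed in proportion between the types. C1qa, C1qb and C1qc made up 46.86%, 19.39% and 33.74% of the C1q UMIs in macrophages and 42.65%, 28.62% and 28.72% in non-classical monocytes. They made up 23.51%, 50.78% and 25.71% of the 319 C1q UMIs in monocytes. Neutrophils, not a main source of C1q, held 511 C1q UMIs in the proportions 50.68%, 19.37% and 29.94%, with 0.1135 Cd5l UMIs per C1q UMI against 0.1224 in macrophages and 0.001531 in non-classical monocytes. The neutrophil proportions lay nearer to those of macrophages than to those of either monocyte type, and how much RNA from macrophages was carried into other droplets was not tested.

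Across the 64 sums of 1 cell type and library, the genes whose log2(CPM + 1) ran most like each member were listed. These sums share libraries and differ in depth, so the values are descriptive. The sum of the C1q chains ran most like Axl (Pearson r = 0.897), Ms4a7 (0.895), Nr1h3 (0.867), Spic (0.824) and Mertk (0.82), among 13594 genes. Nr1h3 encodes the oxysterol receptor LXR alpha, and Spic is a transcription factor of iron-recycling macrophages. Axl ran most like C1qa (0.887), C1qb (0.869), Mrc1 (0.864) and Hmox1 (0.86). Mertk ran most like Spic (0.847), C1qc (0.845), Nr1h3 (0.832), Siglec1 (0.832) and Slco2b1 (0.821). Cd5l was closest to Gpd1 (0.938), Timd4 (0.924), Fcna (0.891), Gdf15 (0.852) and Spic (0.849), of which Timd4 is itself a phosphatidylserine receptor. Mrc1 was closest to Selenop (0.907), Cxcl16 (0.882), Fabp4 (0.878) and Axl (0.864). The ligands stood apart: Gas6 ran with Kitl (0.914), Igfbp5 (0.912), Hpgd (0.901), Gpx3 (0.892) and Mmp13 (0.887), of which Hpgd was on the list of macrophage markers. Pros1 had no close partner, with Cmtm3 (0.745), Nav1 (0.742), Cd302 (0.716), Papss1 (0.715) and Nupr1 (0.697), and Lgals3bp ran with Hs2st1 (0.837), Lpin1 (0.831), Vkorc1 (0.812), Pigp (0.808) and Ext2 (0.799). Spic, Hmox1, Siglec1, Timd4, Fcna, Hpgd, Fabp4, Kitl and Igfbp5 were among the markers used to name cell types.

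PM was then compared with vehicle. No member was called in macrophages, whereas Axl and Lgals3bp rose in monocytes, Axl from a mean of 3.71 to 36.5 CPM. Calls come from edgeR's quasi-likelihood test across all genes and need a log2 fold change beyond 0.5 in either direction and a p under 0.05 after the correction of Benjamini and Hochberg. The change is given with its standard error (SE). Each library is 1 mouse. In macrophages 8 of 4327 genes tested were called, 0.185%, and 0 of the 9 members tested. At an unadjusted p under 0.05 there were 1 member, Cd5l, and 339 of the 4327 genes. DESeq2's Wald test called 0 members. The median log2 fold change of the 9 members was 0.312, beside -0.01 over all genes tested.

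The C1q chains were higher in both PM libraries than in both vehicle libraries in macrophages, but none of them was called. The share of all genes that part the groups in this way is not given here. C1qa had 2158.3 and 1697.3 CPM in vehicle and 2811.2 and 2746.9 CPM in PM, a log2 fold change of 0.62 (SE 0.33, adjusted p = 0.672, edgeR). C1qb had 863.3 and 851.7 CPM in vehicle and 1042.7 and 1087.6 CPM in PM (log2 fold change 0.39, SE 0.31). C1qc had 1491.2 and 1570.5 CPM in vehicle and 1720.4 and 1878.9 CPM in PM (0.31, SE 0.32).

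The receptors of the macrophages showed no call either. Axl had 936.2 and 851.7 CPM in vehicle and 1094.8 and 969.1 CPM in PM (log2 fold change 0.29, SE 0.31, adjusted p = 0.869, edgeR). Mertk had 218.6 and 211.4 CPM in vehicle and 208.5 and 146.4 CPM in PM (-0.20, SE 0.32), both PM libraries being the lower. Mrc1 had 1031.5 and 915.1 CPM in vehicle and 866.2 and 930.7 CPM in PM (-0.03, SE 0.31), with overlapping groups. Among the secreted proteins, Lgals3bp had 218.6 and 169.1 CPM in vehicle and 208.5 and 223.1 CPM in PM (0.25, SE 0.31), overlapping as well. Gas6 rested on 3 and 15 UMIs in vehicle and 20 and 13 in PM (0.90, SE 0.52).

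Cd5l was the member with the widest difference in macrophages and the least even vehicle group. It had 235.5 and 555.7 CPM in vehicle and 770.0 and 759.9 CPM in PM, a log2 fold change of 0.98 (SE 0.38, unadjusted p = 0.0189, adjusted p = 0.560, edgeR). Vehicle 1 stood far below the other three libraries. It also had the fewest cells and the lowest neutrophil marker level, and 0.05217 Cd5l UMIs per C1q UMI against 0.1349 in vehicle 2, 0.1381 in PM 1 and 0.133 in PM 2. The fold change of Cd5l thus turned on a single library: without vehicle 1 it was 0.46, and without vehicle 2, so that vehicle 1 stood alone for its group, it was 1.92 (SE 0.28) with an adjusted p of 4.12e-09. Without the cells rich in neutrophil or erythroid markers, Mertk turned from -0.20 to 0.21 and Mrc1 from -0.03 to 0.29, again with no call.

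**Figure D3:**
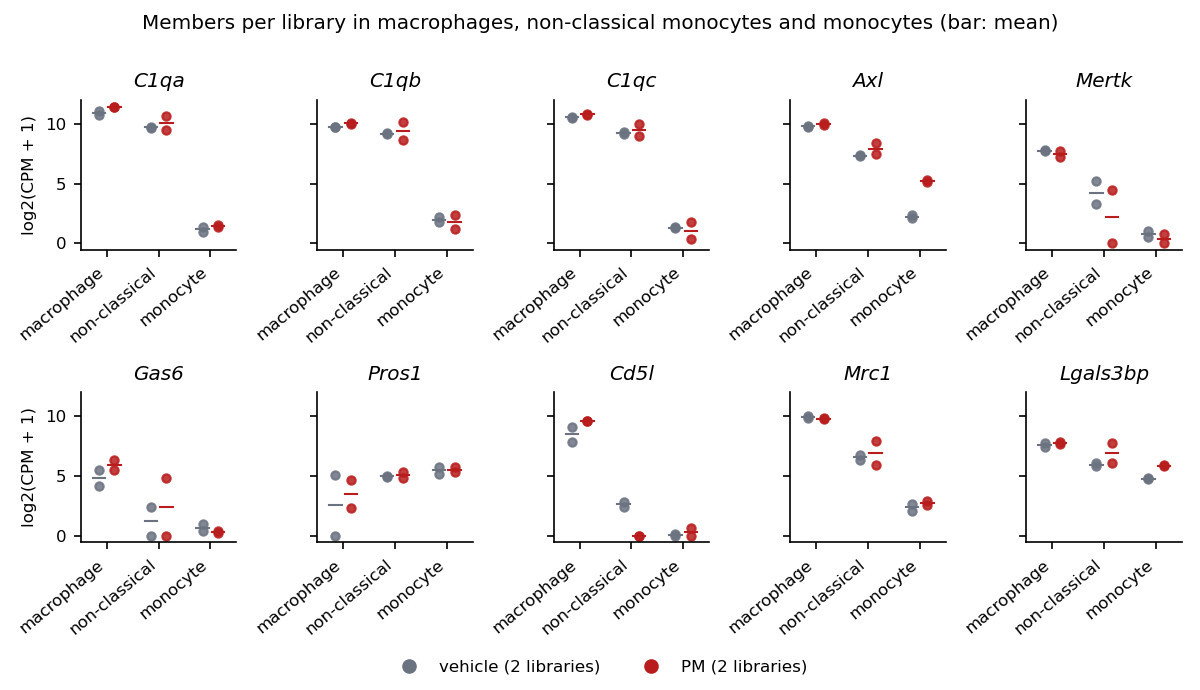
Level of each member, log2(CPM + 1), in each library (points, 2 vehicle and 2 PM) in macrophages, non-classical monocytes and monocytes, with the group means as bars. The groups stand apart for Axl and Lgals3bp in monocytes, while in macrophages they lie close for all members but Cd5l, Gas6 and Pros1.

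In monocytes 217 of 11708 genes tested were called, 1.85%, and 2 of the 7 members tested, both higher in PM. Axl had 3.41 and 4.01 CPM in vehicle (50 and 43 UMIs) and 37.88 and 35.09 CPM in PM (671 and 258 UMIs). The PM libraries thus stood 9.83-fold above vehicle by their means, far beyond the spread within either group. The log2 fold change was 3.28 (SE 0.17, adjusted p = 2.46e-05, edgeR). Lgals3bp had 25.91 and 27.05 CPM in vehicle (380 and 290 UMIs) and 58.94 and 55.08 CPM in PM (1044 and 405 UMIs). It was 2.15-fold higher by the means, with no overlap (log2 fold change 1.08, SE 0.12, adjusted p = 0.00267, edgeR). The Axl level of PM monocytes stayed far below that of macrophages, and that of Lgals3bp stayed below it too.

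The other members did not pass the test in monocytes. Pros1, the ligand that monocytes hold most of, had 52.5 and 35.5 CPM in vehicle and 38.3 and 52.8 CPM in PM, interleaved between the groups (log2 fold change -0.01, SE 0.22, adjusted p = 0.994, edgeR). Mrc1 had 3.14 and 5.32 CPM in vehicle and 6.27 and 4.90 CPM in PM, overlapping (0.42, SE 0.31). The C1q chains were low in every library: C1qa ranged from 0.955 to 1.86 CPM, C1qb from 1.22 to 4.23 CPM and C1qc from 0.272 to 2.43 CPM, with overlapping groups. Mertk (15, 5, 12 and 0 UMIs in vehicle 1, vehicle 2, PM 1 and PM 2), Gas6 (4, 10, 5 and 1) and Cd5l (1, 0, 9 and 0) were too low to be tested. Axl thus rose in monocytes where the other kinase of the pair, Mertk, was hardly seen.

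The rise of Axl lay in many cells. A UMI of Axl was found in 3.682% and 5.926% of vehicle monocytes (exact 95% binomial intervals 2.605 to 5.039% and 4.267 to 7.982%) and in 34.78% and 33.06% of PM monocytes (32.18 to 37.45% and 28.94 to 37.4%). These intervals cover counting error only. No PM monocyte had over 7 Axl UMIs, and the 5 cells with most held 3.23% of the group's 929 UMIs. At a fixed 2000 UMIs per cell, which kept 3431 of the 3467 monocytes, the shares were 1.001% and 0.9063% in vehicle against 8.956% and 7.407% in PM. T cells had 1.754% and 2.051% in vehicle and 1.438% and 1.882% in PM at the same 2000 UMIs, from median depths of 3195.0 to 3799.0 UMIs. Neutrophils had 0.1757% and 0.2245% in vehicle and 0.5464% and 0.5893% in PM, from median depths of 4284.5 to 5752.5 UMIs. The shares of vehicle monocytes thus lay between those of neutrophils and T cells, and those of PM monocytes above both types. How much of these shares is free RNA was not tested. For Lgals3bp the shares of monocytes were 25.97% and 26.37% in vehicle and 45.93% and 44.35% in PM, and at 2000 UMIs 6.507%, 7.251%, 13.79% and 10.49%. At the same 2000 UMIs, Lgals3bp was found in 0.1122 to 0.4139% of neutrophils, and in 12.87% and 9.231% of vehicle and 12.62% and 13.88% of PM T cells.

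The change of Axl in macrophages differed from that in monocytes. In a test of the difference itself, with the mouse as a block, the change of Axl in macrophages minus that in monocytes was -2.97 on the log2 scale (SE 0.39, adjusted p = 3.56e-10, edgeR). Axl was the single member called among the 10 tested, where 24 of 11400 genes (0.211%) were called. The difference for Lgals3bp was -0.82 (SE 0.39, unadjusted p = 0.0339, adjusted p = 0.877, edgeR), so that its rise in monocytes was not shown to differ from its change in macrophages. Between macrophages and non-classical monocytes no member of the 9 tested differed, and no gene of 5144 did (0%). At an unadjusted p under 0.05 there was 1 member, Cd5l, which has hardly any UMI in non-classical monocytes.

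**Figure D4:**
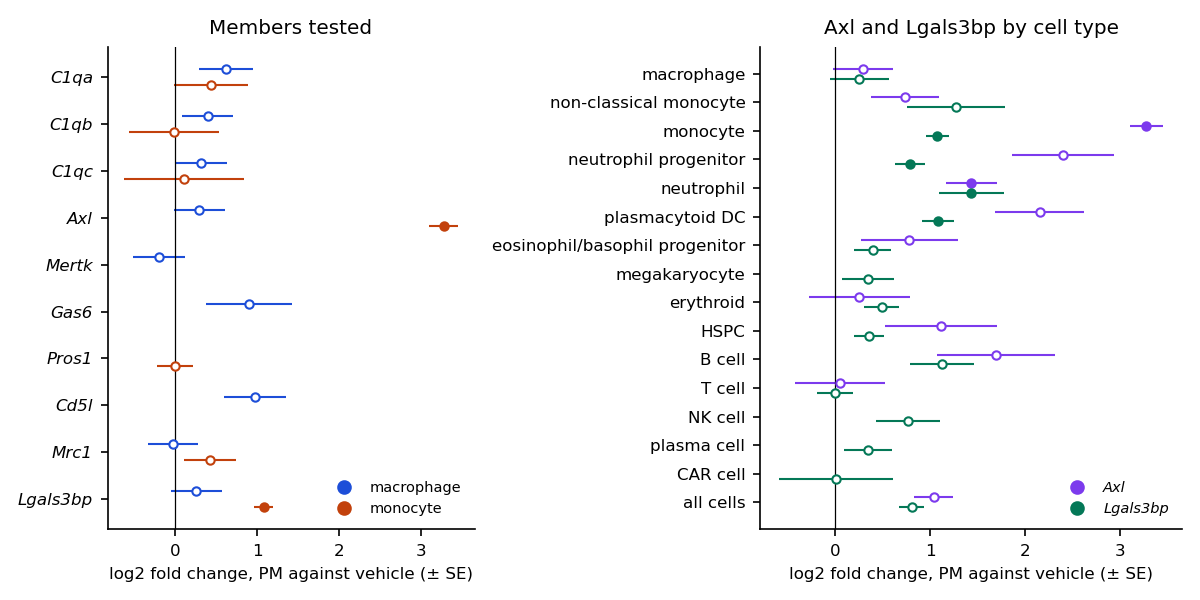
Log2 fold change of PM against vehicle with its SE, in edgeR, for the members tested in macrophages and monocytes (left) and for Axl and Lgals3bp in each cell type (right). Filled points were called, and Axl in monocytes, at 3.28, lies farthest from 0.

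To see whether the rise belonged to certain monocytes, these were clustered again without the members and without the genes called between PM and vehicle, a step added after the data were seen. Even so, sub-cluster 0 (801 cells, led by Hbb-bs, Hba-a1 and Hba-a2, with Slfn5 and Oasl2) held 7 and 23 vehicle and 565 and 206 PM cells, and sub-cluster 1 (692 cells, led by Saa3 and Apoc2) held 436 and 236 vehicle and 2 and 18 PM cells. PM and vehicle therefore cannot be compared within these. Axl in sub-cluster 0 had 20.02 and 23.35 CPM in vehicle (1 and 6 UMIs). Its PM values there were 69.37 and 64.08 CPM (289 and 119 UMIs). In sub-cluster 1 Axl had 2.52 and 2.182 CPM in vehicle and 0 and 26.39 CPM in PM (0 and 3 UMIs). Lgals3bp had 60.07 and 105.1 CPM in vehicle against 113.1 and 97.46 CPM in PM in sub-cluster 0. In sub-cluster 1 it had 38.06 and 43.21 against 289 and 123.1 CPM (4 and 14 UMIs in PM). The cycling sub-clusters held cells of all libraries. In sub-cluster 2 (519 cells, led by histone genes and Top2a) Axl had 2.793 and 2.55 CPM in vehicle and 21.53 and 18.33 CPM in PM. In sub-cluster 3 (431 cells, led by Ccne2 and Mcm6) it had 3.865 and 7.532 CPM in vehicle and 27.09 and 33.14 CPM in PM. In sub-cluster 4 (395 cells, led by Cdc20 and Aspm) it had 2.294 and 1.292 CPM in vehicle and 33.68 and 29.09 CPM in PM. Within each of these 3 states both PM libraries lay above both vehicle libraries, and the values are given with no test.

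Lgals3bp did likewise, with 13.97 and 9.245 CPM against 37.29 and 35.17 CPM in sub-cluster 2, 16.32 and 23.97 against 42.07 and 45.12 CPM in sub-cluster 3, and 18.35 and 12.92 against 34.13 and 31.24 CPM in sub-cluster 4. Sub-cluster 5 (229 cells, led by the MHC class II genes H2-Ab1 and H2-Aa) held only 11 and 13 PM cells. There Axl had 13.35 and 9.082 CPM in vehicle and 178.4 and 11.23 CPM in PM, from 9 UMIs and 1 UMI, so that the groups overlapped. Its Lgals3bp had 71.19 and 76.55 CPM in vehicle and 158.6 and 224.6 CPM in PM. The remaining 4 sub-clusters held 45.7 to 75.4% called doublets, and without called doublets the fold changes of Axl and Lgals3bp over all monocytes remained called.

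**Figure D5:**
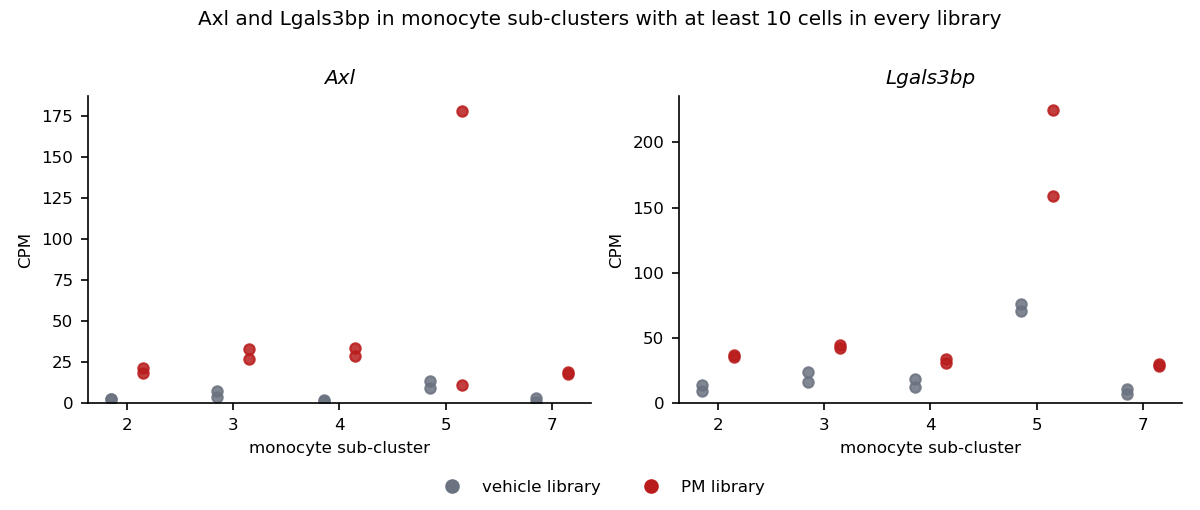
Level (CPM) of Axl (left) and Lgals3bp (right) in the monocyte sub-clusters with at least 10 cells in every library, with 1 point per library. In sub-clusters 2, 3, 4 and 7 both PM points lie above both vehicle points for both genes, and in sub-cluster 5 the Axl values of the groups overlap.

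Non-classical monocytes gave no call among the 6 members tested in edgeR, with 2 of 3733 genes called (0.0536%). At an unadjusted p under 0.05 there were 1 member, Lgals3bp, and 218 of the 3733 genes. PM 1 stood above the other libraries for all members tested. C1qa had 879.0 and 832.9 CPM in vehicle and 1635.4 and 739.1 CPM in PM (log2 fold change 0.55, SE 0.37), Axl 154.4 and 171.0 against 336.7 and 178.2 CPM (0.73, SE 0.36). Lgals3bp had 65.3 and 57.0 CPM in vehicle and 219.9 and 66.0 CPM in PM (1.28, SE 0.52, unadjusted p = 0.0290, adjusted p = 0.784, edgeR). The sums rest on 37 to 78 cells, and PM 2 lay near vehicle for C1qa, Axl and Lgals3bp. PM 1 stood apart in its markers too. Its conventional DC markers held 25930 CPM, against 10450 to 12590 CPM in the other libraries, and its non-classical monocyte markers 3608 CPM, against 5327 to 6067 CPM. Of its cells 5.405% were called doublets, against 0% in the others. Their part in the values was not tested.

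Among the other types and the sum of all cells, 6 calls of members were made with edgeR, all higher in PM. DESeq2 made 6 as well, though not the same set. Of all genes called, 652 were higher and 111 lower in neutrophils, and 68 and 7 in neutrophil progenitors. In plasmacytoid dendritic cells 41 were higher and 6 lower, and in B cells 295 and 329. Lgals3bp rose in plasmacytoid dendritic cells (DCs), from 41.9 and 40.7 CPM to 89.3 and 86.1 CPM (log2 fold change 1.08, SE 0.17, adjusted p = 0.00931, edgeR), where 0.469% of genes were called. It rose in neutrophil progenitors from 20.7 and 16.1 CPM to 34.4 and 30.5 CPM (0.79, SE 0.15, adjusted p = 0.0356, edgeR), where 0.638% were called. In both types its groups did not overlap. DESeq2 left the change in plasmacytoid DCs uncalled (adjusted p = 0.151). The call in neutrophil progenitors was lost in 2 of 12 alternatives. Called doublets held 9.77% of the Lgals3bp UMIs of PM neutrophil progenitors and 0% in vehicle. In plasmacytoid DCs they held 12.1% in PM and 1.32% in vehicle. Axl had 4.0 and 4.1 CPM in vehicle and 24.0 and 10.8 CPM in PM in plasmacytoid DCs (2.15, SE 0.47, adjusted p = 0.0790, edgeR). In neutrophil progenitors it had 1.02 and 0.66 CPM in vehicle and 6.38 and 2.59 CPM in PM (2.40, SE 0.54, adjusted p = 0.0891, edgeR). Neither passed the threshold.

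In neutrophils 3 members were called at very low levels. C1qa went from 0.862 and 1.22 CPM to 2.44 and 3.28 CPM (log2 fold change 1.37, SE 0.28, adjusted p = 0.0200, edgeR), and Axl from 1.28 and 0.885 CPM to 3.07 and 3.38 CPM (1.44, SE 0.26, adjusted p = 0.0115). Lgals3bp went from 0.979 and 0.479 CPM to 2.23 and 2.20 CPM (1.43, SE 0.34, adjusted p = 0.0361, edgeR). The groups did not overlap, but 6.39% of all genes were called in neutrophils. At 2000 UMIs per cell, Axl was found in 0.1757% and 0.2245% of vehicle and 0.5464% and 0.5893% of PM neutrophils, and how much of this is free RNA was not tested. Of these calls, C1qa was lost in 3 of 12 alternatives, Axl in 2 and Lgals3bp in 5. In the same neutrophil sums 7 of the 12 macrophage markers were tested, with a median log2 fold change of 0.775, beside -0.00 over all genes. Vcam1 alone of the 7 was called, from 12.6 and 16.7 CPM in vehicle to 32.7 and 31.9 CPM in PM. Slc40a1 (-0.27) and Hmox1 (-0.19) went the other way, uncalled. The part of macrophage RNA in the neutrophil values was not tested. In B cells, where 5.87% of genes were called, C1qa went from 1.38 and 3.86 CPM to 9.92 and 12.65 CPM (1.71, SE 0.44, adjusted p = 0.0283, edgeR). This call rested on few cells, the 5 with most holding 53.4% of the 73 UMIs in PM and 64.3% of the 14 in vehicle, and it was lost in 6 of 12 alternatives. The B cells of the groups also differed in make-up. Cluster 7 held 116 and 270 vehicle and 921 and 409 PM cells, cluster 15 held 82 and 474 vehicle and 171 and 121 PM cells, and cluster 16 held 44 and 238 vehicle and 334 and 204 PM cells. The part of this make-up in the change of C1qa was not tested.

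No member was called in CAR cells (0.0888% of genes called), eosinophil/basophil progenitors (0.111%), erythroid cells (0.191%), HSPC (0.0275%), megakaryocytes (0%), NK cells (0.179%), plasma cells (0.0421%) or T cells (0.125%) in edgeR. At an unadjusted p under 0.05 there were Lgals3bp and C1qc in erythroid cells, Lgals3bp in HSPC and NK cells, and Pros1 in megakaryocytes. The same held for 1534 of 10492 genes tested in erythroid cells, 606 of 10920 in HSPC and 251 of 5016 in NK cells. The count over all genes in megakaryocytes is not given here. In erythroid cells Lgals3bp was higher in PM, with 72.1 and 62.4 CPM in vehicle and 111.9 and 86.2 CPM in PM. C1qc was lower there, with 5.71 and 3.62 CPM in vehicle and 1.65 and 2.25 CPM in PM. For the ligands, Gas6 in CAR cells had 781.9 and 2189.1 CPM in vehicle and 960.0 and 1432.3 CPM in PM, the PM values lying between those of vehicle (log2 fold change -0.25, SE 0.52). Pros1 in CAR cells had 128.5 and 143.2 CPM in vehicle and 83.5 and 82.1 CPM in PM (-0.65, SE 0.41, adjusted p = 0.924, edgeR), both lower and not called. In megakaryocytes Pros1 had 34.9 and 76.8 CPM in vehicle and 28.8 and 24.6 CPM in PM (-1.17, SE 0.39, unadjusted p = 0.0179, adjusted p = 0.974, edgeR). T cells gave flat values of the genes that rose in monocytes. Axl had 8.36 and 9.47 CPM in vehicle and 6.96 and 11.99 CPM in PM (0.05, SE 0.47), and Lgals3bp 75.2 and 62.1 CPM against 65.2 and 70.0 CPM (-0.00, SE 0.19), both overlapping. Whether the change in monocytes differed from that in T cells was not tested.

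Over all cells of a library, 2 of 15581 genes were called (0.0128%) and 0 of the 10 members. Axl had 4.42 and 6.66 CPM in vehicle and 13.33 and 11.19 CPM in PM (log2 fold change 1.04, SE 0.21, adjusted p = 0.227, edgeR). Lgals3bp had 16.44 and 20.03 CPM in vehicle and 37.1 and 32.0 CPM in PM (0.81, SE 0.13, adjusted p = 0.191, edgeR). Neither gene overlapped between the groups. Both had an unadjusted p under 0.05, as had 1993 of the 15581 genes tested. Mertk was also among these genes, but its values over all cells are not given here. In macrophages, where its level was highest, Mertk had 218.6 and 211.4 CPM in vehicle and 208.5 and 146.4 CPM in PM. In a sum over all cells a change in the number of cells of a type and a change within them cannot be told apart.

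Around the members, 7 lists of genes of the same pathway were read in the same tests. In macrophages none of their tested genes was called. Of the C1 partners and C1q receptors, 6 of the 9 in the files were tested in monocytes, of which 1 rose and 1 fell. The share called over all genes tested in monocytes was 1.85%. C1ra, a protease of the C1 complex, rose from 12.3 and 10.1 CPM to 18.7 and 26.5 CPM (log2 fold change 0.95, SE 0.18, adjusted p = 0.0321, edgeR). Lrp1, an endocytic receptor that takes part in clearance through C1q and calreticulin, fell from 247.9 and 201.2 CPM to 115.6 and 121.9 CPM (-0.96, SE 0.12, adjusted p = 0.00433, edgeR). The median of the 6 was -0.19, beside -0.00 over all genes tested.

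Of the genes by which a cell restrains its own engulfment or that of a neighbor, 2 of 6 rose and 1 fell in monocytes. Over all genes tested in monocytes, 1.85% were called. Cd24a, the ligand of Siglecg, rose from 134.0 and 160.6 CPM to 300.8 and 363.4 CPM (log2 fold change 1.13, adjusted p = 0.00274, edgeR). Siglecg in monocytes had 5.7 and 16.1 CPM in vehicle and 44.9 and 54.4 CPM in PM, not called (2.18, SE 0.61, adjusted p = 0.321, edgeR). Pecam1, which living cells use to detach from phagocytes, rose from 13.6 and 11.8 CPM to 27.6 and 34.1 CPM (1.23, adjusted p = 0.00382, edgeR). Pilra, an inhibitory receptor, fell from 74.1 and 56.7 CPM to 39.2 and 38.4 CPM (-0.79, adjusted p = 0.0258, edgeR). The median of the 6 in monocytes was 0.59. In neutrophils, where 6.39% of all genes tested were called, 2 of the 6 rose and none fell. Siglecg rose there from 21.1 and 24.2 CPM to 61.7 and 69.1 CPM (1.43, adjusted p = 0.000173, edgeR). Pecam1 rose from 6.5 and 5.4 CPM to 19.7 and 21.6 CPM (1.68, adjusted p = 0.000229, edgeR). Cd24a in neutrophils had 1128 and 1097.8 CPM in vehicle and 1084.4 and 1301.8 CPM in PM.

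The lists for the act of engulfment itself held no call in monocytes or macrophages. This was so for the other phosphatidylserine receptors and bridges (12 tested in monocytes, 10 in macrophages), for other scavenger and lectin receptors (9 and 6), for the engulfment machinery (18 and 14) and for lipid handling and regulators (13 and 12). In neutrophils 6.39% of all genes tested were called. There 5 of 13 lipid handling and regulator genes rose, namely Rxra, Abcg1, Apoe, Maf and Mylip. Of 6 scavenger and lectin receptors tested in neutrophils, Cd68 fell, and the remaining lists of this group held no call. The most abundant genes of these lists in macrophages are given by their values. Tyrobp, an adaptor of activating receptors, had 1182.9 and 1422.5 CPM in vehicle and 1327.4 and 1122.4 CPM in PM, and Anxa1, a protein that binds phospholipids, 835.3 and 1803.0 against 2209.6 and 1725.5 CPM. Lgals3 had 599.8 and 1177.9 against 866.2 and 1042.3 CPM, and Cd68 280.3 and 293.0 against 264.7 and 327.7 CPM. Lamp1 of the lysosome had 964.2 and 1150.7 against 1006.6 and 1000.4 CPM, and the GTPase Rhoa 510.1 and 585.9 against 493.3 and 529.9 CPM. Apoe, the lipid carrier, had 3537.4 and 2298.3 against 2634.7 and 2851.4 CPM, and the transcription factor Maf 740.0 and 806.4 against 1303.3 and 871.5 CPM.

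Axl is known to be induced by type I interferon, so a short list of interferon-stimulated genes was read beside it. In monocytes 3 of 11 rose and none fell, where 1.85% of all genes tested were called. Rsad2 rose from 7.5 and 11.8 CPM to 39.4 and 37.7 CPM (log2 fold change 1.98, adjusted p = 0.00409, edgeR), Usp18 from 11.2 and 11.9 CPM to 33.8 and 27.1 CPM (1.38, adjusted p = 0.00380) and Bst2 from 82.8 and 67.6 CPM to 146.9 and 128.8 CPM (0.84, adjusted p = 0.0160, edgeR). The median of the 11 was 0.94. In macrophages 4 were tested and none called, with a median log2 fold change of 1.152, beside -0.01 over all genes. There Bst2 had 106.5 and 114.8 CPM in vehicle and 208.5 and 264.9 CPM in PM (1.16, SE 0.33, adjusted p = 0.317, edgeR), and Rsad2 22.4 and 78.5 against 156.4 and 83.7 CPM. In neutrophils 6 of the 11 rose and none fell, with a median of 0.91, where 6.39% of all genes tested were called. These were Isg15, Ifit3, Rsad2, Irf7, Usp18 and Bst2. Rsad2 went there from 46.1 and 31.6 CPM to 157.7 and 155.1 CPM. Axl, also called in neutrophils, had 3.07 and 3.38 CPM in PM. Whether the change of Axl follows from that of the interferon-stimulated genes was not tested.

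Markers of other cells also moved within the monocyte sums. The 10 neutrophil markers held 21940 and 16290 CPM in vehicle and 31000 and 17120 CPM in PM, which overlapped. The 12 erythroid markers held 44.32 and 211.4 CPM in vehicle and 494.9 and 716.7 CPM in PM, which did not. In all, 10 of the 16 marker lists of other types were higher in both PM libraries than in both vehicle libraries, namely those of erythroid cells, neutrophil progenitors, plasmacytoid DCs, B cells, NK cells, CAR cells, HSPC, eosinophil/basophil progenitors, megakaryocytes and endothelial cells. The neutrophil progenitor markers held 1522 and 1654 CPM in vehicle and 3075 and 2119 CPM in PM, and the NK cell markers 2.386 and 2.425 against 14.85 and 15.5 CPM. The CAR cell markers held 6.409 and 11.29 against 30.21 and 26.79 CPM, and the endothelial markers 16.84 and 13.99 against 33.82 and 38.35 CPM. Apart from the setting without cells rich in neutrophil or erythroid markers, given last, the part of these lists in the change of the members was not tested. Their part in the changes of the pathway genes was not tested either. The 12 macrophage markers held 199.3 and 173.6 CPM in vehicle and 184.1 and 186.3 CPM in PM, and 1 of them, Hmox1, was called lower. The part of macrophage RNA in the change of Axl was not tested. Without cells that had over 5% of their UMIs in the neutrophil and erythroid markers, the fold changes of Axl and Lgals3bp in monocytes remained called.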

How the data were processed

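Bone marrow of 4 mice was profiled with a droplet 3' kit. Per the paper's methods the authors aligned reads to GRCm38 with Cell Ranger (6.0.1 in the file headers), while the submitters' processing notes name GRCm39 and STAR, and they deposited raw counts, the UMIs per gene and barcode. The files hold no coordinates. Barcodes under 300 genes or above 20% mitochondrial UMIs were dropped. Clusters (2500 variable genes without the members, 30 principal components, 15 neighbors, leidenalg 0.10.2, resolution 1) were named from marker lists, with thresholds set after the clusters were seen. Doublets were called per library against simulated ones (1.751 to 5.991% of cells) and kept. Counts were summed per library and type with at least 10 cells in every library, which left out endothelial cells, and went into a robust quasi-likelihood fit of edgeR 4.0.16 in R 4.3.3, with TMM factors, its filterByExpr filter and condition as the single term, with DESeq2 1.42.0 as an alternative. The fit recovered known fold changes in counts simulated with a fixed spread from a mean profile common to all libraries. That setting lacks the uneven make-up and the genes of other cells seen in these libraries. Members and gene lists were chosen with earlier results of these data known. All members are named, with the called genes of each list (otherwise its 2 most abundant in macrophages) and the 5 genes most like each member, apart from some that are not reported here. Clec7a and Mx1 were not analysed here.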

Additional observations from a re-analysis of the deposited data

Results flagged for a closer look

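The effect of PM on Axl differed between cell types by a test of the difference itself. The log2 fold change in macrophages (0.29) minus that in monocytes (3.28) was -2.97 (SE 0.39, adjusted p = 3.56e-10, edgeR, mouse as a block). In both types both PM libraries lay above both vehicle libraries. The difference was called in 12 of 12 alternatives, between -3.195 and -2.667, with adjusted p from 9.61e-17 to 0.0179. In macrophages Axl stood at 851.7 to 936.2 CPM in vehicle and in monocytes at 3.41 to 4.01 CPM, so the compared changes start from levels far apart.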

How the results depend on the processing

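The call of Axl in monocytes held in 13 of 13 alternatives (log2 fold change 3.149 to 3.478, adjusted p up to 0.00632, edgeR or DESeq2) and that of Lgals3bp in 12 of 13. Lgals3bp lost its call without PM 1 (0.98, adjusted p = 0.0876, edgeR), which left 1 to 2 members called in monocytes when a library was left out. In macrophages 0 to 1 members were called without a library, the 1 being Cd5l without vehicle 2. Genes called in macrophages, 8 as reported, were 1 with DESeq2, 30 without the filter on low counts, 0 with the stricter cell filter and at resolution 1.5, and 2 to 476 without a library (20 without vehicle 1, 476 without vehicle 2, 2 without PM 2). In monocytes, against 217, there were 723 without the filter and 12 to 825 without a library (825 without vehicle 2, 12 without PM 1, 96 without PM 2). A lone library is assumed to vary like the other group. Calls of members in other types, 6, became 14 without the filter and 1 to 10 without a library (1 without PM 1, 10 without PM 2). These alternatives for the other types were chosen after seeing the data. The causes were not tested.

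Changes of sign were found among uncalled members with small values, and none became called. C1qb in monocytes was 1.092 at resolution 1.5 and -1.367 to 0.5014 without a library. C1qc in macrophages was -0.0004865 with the stricter cell filter. C1qc in monocytes was -0.06838 with DESeq2, -0.03549 without doublets, -0.07749 with members kept in the clustering, -0.1135 without cells rich in neutrophil or erythroid markers, and -2.461 to 0.732 without a library. Mertk in macrophages was 0.2091 without the rich cells and -0.4579 to 0.08128 without a library. Mrc1 in macrophages was 0.004727 with DESeq2, 0.02507 without doublets, 0.2862 without the rich cells and -0.03385 to 0.03971 without a library. Pros1 in monocytes was 0.04684 at resolution 1.5, 0.0005728 without the rich cells and -0.2584 to 0.2992 without a library.

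The labels give no pairing of the mice by replicate number. Deviations of libraries with the same number correlated at 0.042 in macrophages and -0.047 in monocytes. With 2 libraries a group these values cannot decide whether the mice were paired. A figure caption of the paper names 2 independent experiments, without saying which mice belonged to each. With a replicate block 37 genes were called in macrophages and 653 in monocytes, C1qc in monocytes was -0.1379 and Pros1 0.005823, and the calls of members in these types stayed. In neutrophils the correlation was -0.157, and a block on the crossed pairing, added after seeing the data, gave 7 calls of members in other types against 9 with the block by number. In all 8 alternatives run for the levels, 8 members were highest in macrophages. With 62 to 158 shallow macrophages per library and 2 libraries a group, none of the differences of the C1q chains there was called.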
